A study of Homo sapiens with 12 samples.

Results

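NCI-H716, a line from a poorly differentiated cancer of the caecum that grows in suspension, was set against HUTU-80 and MDST8 to find the genes that mark it. All 4 NCI-H716 arrays of the 12 in the series were used, and the other 8 arrays were the 4 of each other line. A gene was taken as a marker where every NCI-H716 array lay at least 2 log2 units (a factor of 4) above, or below, every array of both other lines. Of 19774 genes, each read by its brightest probe set, 463 (2.34%) were higher in NCI-H716 by this rule and 217 (1.10%) were lower, 680 in all. The same rule found 224 higher and 238 lower genes for HUTU-80, and 391 and 116 for MDST8. Because their values chose them, these genes are described without a test.

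Per the labels all 3 lines are of colorectal cancer and have methylation at both miR-200 loci, although HUTU-80 is known as a line from the duodenum. Each line had a control array, called control in the labels with no word on what those cells received. NCI-H716 and MDST8 also had an array with the miR-200c141 lentivirus, which carries miR-200c and miR-141, one with miR-200ba429, which carries miR-429 with miR-200a and miR-200b, and one with both viruses. HUTU-80 had a pair of miR-200c141 arrays, labelled 1:3 and 1:5, and 1 miR-200ba429 array, but none with both. The labels do not say what 1:3 and 1:5 stand for. Transduced cells were sorted on green fluorescence at 48 hours, 24 hours later some cells with miR-200ba429 were given the second virus, and total RNA was taken 7 days after transduction. The 4 arrays of a line thus share a line but not a treatment, and no label says that they came from separate cultures. The spread within a line is therefore that between differently treated cells.

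Enteroendocrine cells are scattered hormone-making cells of the gut lining that store peptides in dense granules with chromogranins and sense nutrients through receptors on their surface. L cells, the enteroendocrine type that makes glucagon-like peptides from GCG, are commonly modelled with NCI-H716. Goblet cells secrete gel-forming mucins and the small proteins packed with them, while enterocytes carry a brush border of villin-cored microvilli with digestive enzymes.

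Over all genes, arrays of NCI-H716 correlated with each other at 0.981 to 0.994 (Pearson's r, across genes) and with arrays of the other lines at 0.839 to 0.863. Array medians spanned 3.595 to 3.662 on the log2 scale of the deposited values. The difference between the 3′ and 5′ control probe sets of ACTB, a sign of RNA length, was 2.327 to 2.626 in NCI-H716, 2.102 to 2.388 in HUTU-80 and 1.497 to 2.019 in MDST8, and its part in the results was not tested. That for GAPDH overlapped between the lines, at 0.269 to 0.383. The brightest of 23 nonspecific control probe sets reached 5.43, which is used below as the background level. Values under it have no order, and a fold against them is given as "at least", from the bright side's mean to the dim side's mean with every lower value raised to 5.43. Where both other lines were the bright side, the dimmer of their means was used. In whole cultures such as these, fewer cells of a type and less RNA per cell cannot be told apart.

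The widest gap on the higher side was that of AGR2. AGR2, a disulphide isomerase of mucus-producing cells, read 13.12 in the NCI-H716 control, 13.17 with miR-200c141, 13.12 with miR-200ba429 and 13.19 with both, or 13.15 ± 0.03 (SD, n = 4). It read 3.29, 2.89, 3.46 and 3.52 in HUTU-80, counted as control, 1:3, 1:5 and miR-200ba429, and 2.59 to 3.23 in MDST8. No other array came near NCI-H716, and the difference was at least 211-fold. SPINK4, a goblet cell protease inhibitor, read 12.67, 13.16, 12.82 and 13.12 in NCI-H716 and 2.93 to 3.39 elsewhere, at least 182-fold. TFF3, the trefoil peptide packed with intestinal mucin, read 12.37, 12.65, 12.26 and 12.80 against 2.89 to 3.92, at least 136-fold. All 4 NCI-H716 arrays were near the top of the scale for these genes and all 8 others were under background.

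Others among the 12 widest gaps were FCGBP, a mucus protein (at least 135-fold), AGR3, a relative of AGR2 (at least 102-fold), HEPACAM2 (at least 71.4-fold), CLRN3 (at least 79.4-fold) and the tetraspanin TSPAN8 (at least 87.1-fold). The list also held DEPTOR, an inhibitor that binds the mTOR kinase, at 12.26 to 12.39 against 2.70 to 3.79. COL14A1, a collagen that is made in connective tissue, read 12.06 to 12.22 against 2.78 to 3.44. The remaining members were the plasma proteins ALB and AMBP.

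**Figure D1:**
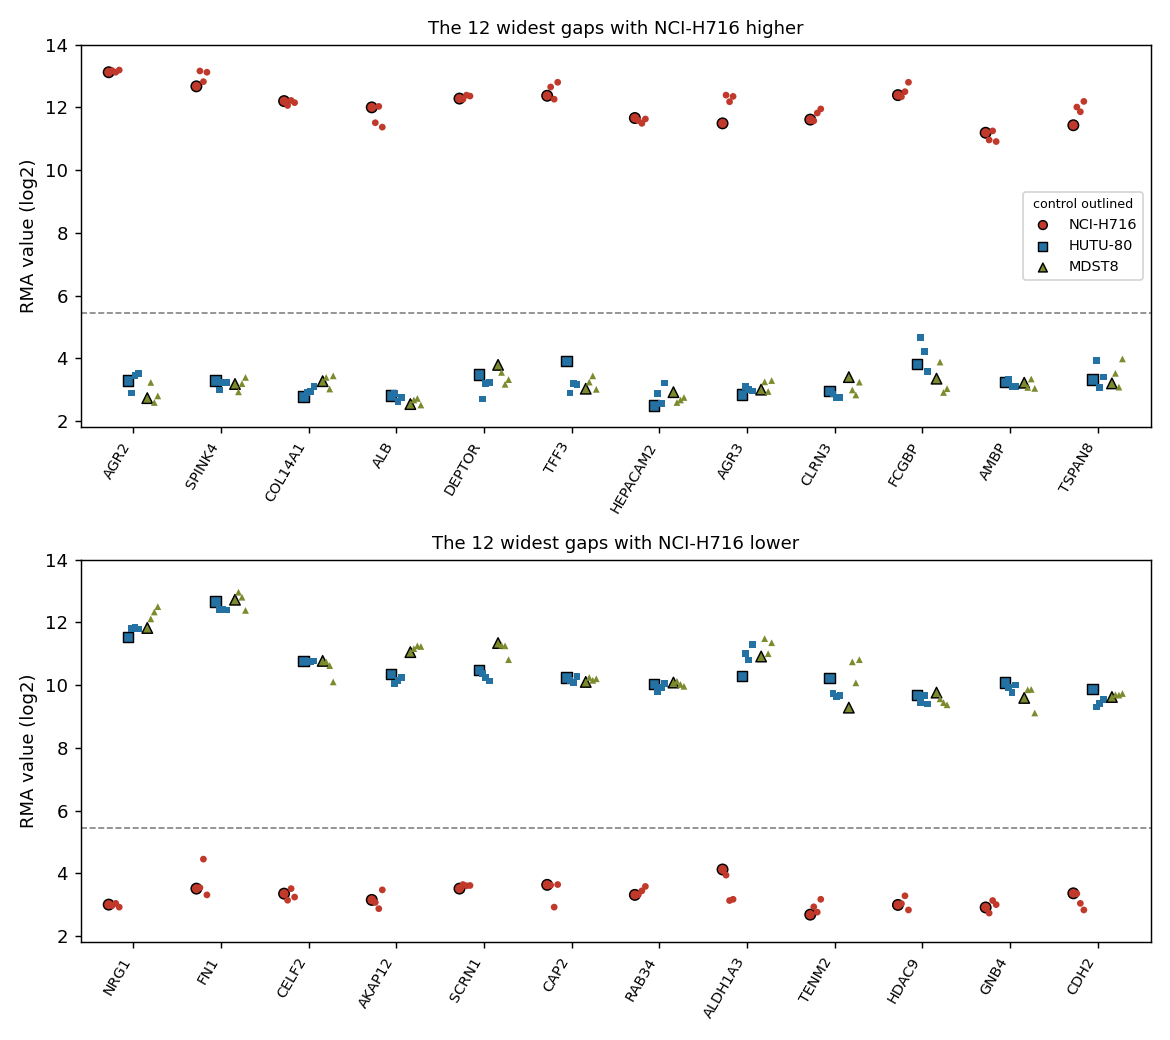
The vertical axis gives the RMA value (log2) of each of the 12 arrays, with circles for NCI-H716, squares for HUTU-80, triangles for MDST8, a black outline for the control array of each line and a dashed line at the background level of 5.43. The upper panel holds the 12 widest gaps with NCI-H716 higher, from AGR2 to TSPAN8, and the lower panel the 12 with NCI-H716 lower, from NRG1 to CDH2. In both panels the dim side lies wholly under the dashed line.

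On the lower side the widest gap was that of NRG1, a ligand of the receptors ERBB3 and ERBB4. It read 3.00, 2.97, 3.04 and 2.92 on the NCI-H716 arrays, 11.53, 11.81, 11.84 and 11.79 in HUTU-80, and 11.82, 12.11, 12.33 and 12.50 in MDST8. NCI-H716 was under background on each array and at least 79.6-fold lower. FN1, the matrix protein fibronectin, read 3.51, 3.54, 4.45 and 3.31 in NCI-H716 against 12.38 to 12.96 in the others, at least 131-fold lower. CDH2, or N-cadherin, read 2.83 to 3.36 against 9.30 to 9.88. The other members of the 12 were CELF2, an RNA-binding splicing regulator, the kinase scaffold AKAP12, ALDH1A3, which makes retinoic acid, the deacetylase HDAC9, and SCRN1, CAP2, RAB34, TENM2 and GNB4. Their bounds ran from at least 17.2-fold for HDAC9 to at least 42.7-fold for ALDH1A3.

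Among the 463 higher genes the median gap between the nearest arrays was 3.42 log2 units and the widest was 9.60. In 49 genes it reached 6 units. On the lower side the median gap was 3.06, the widest 8.50, and 10 genes reached 6 units. Most differences ran from near background to a clear signal: both other lines were under background on every array for 357 of the 463 higher genes, and NCI-H716 was for 184 of the 217 lower genes. Just inside the limit on the higher side lay EML5 and HENMT1, both at 2.01, and just outside lay PPM1L and SIDT1, both at 2.00 after rounding. On the lower side ZNF419 and ST6GAL1, at 2.00, were just inside, and ZNF134 and SH3PXD2B, at 2.00 and 1.99, just outside.

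The endocrine programme of NCI-H716 was strong in granule genes, and one of its hormones was at the top of the scale. Its hallmark, CHGA, the granule protein chromogranin A, read 10.01, 9.75, 9.81 and 9.60 in NCI-H716, 3.23 to 3.93 in HUTU-80 and 2.90 to 2.96 in MDST8. Its value was at least 20.6-fold above both lines. The 250 bases before the CHGA start (RefSeq, GRCh38.p14, chr14:92922900-92923149, plus strand) are shown because they hold a full cyclic AMP response element, the palindrome TGACGTCA, in capitals, starting 54 bases before the start site.

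CHGA promoter: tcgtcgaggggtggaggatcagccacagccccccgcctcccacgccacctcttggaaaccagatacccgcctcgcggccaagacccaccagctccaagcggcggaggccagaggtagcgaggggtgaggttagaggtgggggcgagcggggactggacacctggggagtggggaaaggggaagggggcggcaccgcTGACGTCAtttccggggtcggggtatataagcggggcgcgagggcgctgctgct

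This octamer was uncommon among the higher genes. It lay in 0.707% of the 566 listed promoters of 353 higher genes, in 2.60% of the 308 promoters of 166 lower genes and in 2.09% of the 21528 promoters of 15399 measured genes, on either strand and over the same 250 bases. These shares are descriptions, since promoters of one gene overlap.

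CHGB, the second chromogranin, read 11.33, 11.10, 11.22 and 11.09 in NCI-H716 against 3.73 to 4.92 elsewhere, at least 54.0-fold. SCG3, which helps bring chromogranin A into granules, read 10.61 to 10.72 against 2.65 to 3.51. CPE, the carboxypeptidase that trims prohormones, read 11.38, 11.37, 11.22 and 11.50 in NCI-H716, was under background in HUTU-80 (2.79 to 3.29) and lay between at 5.84 to 6.84 in MDST8. The other granule gene with a middle level in MDST8 was SCG2, at 5.59 to 7.00 against 9.59 to 10.16 in NCI-H716. SCGN, a calcium sensor of endocrine cells, read 7.97 to 8.96 in NCI-H716 and 3.04 to 3.90 elsewhere.

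DDC, the enzyme that makes serotonin and dopamine from their amino acid precursors, read 11.70, 11.54, 11.59 and 11.10 in NCI-H716 against 3.03 to 4.63, at least 66.4-fold. STMN2, a microtubule regulator of neurons and endocrine tumours, was at least 34.3-fold higher. RAB3C, a small GTPase of secretory vesicles, was closer to background and at least 1.64-fold higher. Of the nutrient sensors, FFAR2, a receptor for short-chain fatty acids that L cells carry, read 9.90, 9.84, 9.63 and 9.32 in NCI-H716 and 2.89 to 3.34 elsewhere. FFAR4, a receptor for long-chain fatty acids, read 6.68 to 7.73 in NCI-H716, GNAT3, the taste G protein gustducin, 7.27 to 7.96, and the somatostatin receptor SSTR1 6.59 to 7.81. The other lines were under background on every array for all 3 of these genes.

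Among endocrine transcription factors, INSM1, a zinc finger regulator of endocrine differentiation, read 9.15, 9.26, 8.72 and 8.67 in NCI-H716 and 3.22 to 3.75 elsewhere. RFX6, needed for endocrine cells of pancreas and gut, read 8.43 to 9.14 against 2.81 to 3.43. ST18 was also apart, at least 2.51-fold. A pair of other factors, ISL1 and MNX1, were not apart by 2 units but passed the test in both contrasts. ISL1 was 2.12 log2 units above HUTU-80 (SE 0.34, limma with Benjamini-Hochberg adjustment, adjusted p = 0.000289) and 4.29 above MDST8 (SE 0.31, adjusted p = 2.65e-07).

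A pair of endocrine factors went the other way. PAX6, which activates the glucagon gene in islets and L cells, read 4.09, 4.03, 3.46 and 4.01 in NCI-H716, 11.43 to 11.54 in HUTU-80 and 8.48 to 9.05 in MDST8. NCI-H716 was thus the only line under background for it, at least 9.72-fold lower. NKX2-2 was 2.72 units below HUTU-80 (SE 0.29, limma adjusted p = 1.18e-05) and 1.63 below MDST8 (SE 0.26, adjusted p = 0.000245).

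Hormone genes did not single out NCI-H716. GCG, which encodes proglucagon, read 13.18, 13.12, 13.21 and 13 in NCI-H716 and 13.21, 12.97, 13.08 and 13.09 in HUTU-80, but 2.72 to 3.36 in MDST8. NCI-H716 and HUTU-80 overlapped fully, and their fitted difference was -0.01 (SE 0.13, limma adjusted p = 0.9566). NTS, or neurotensin, read 5.41, 7.29, 6.83 and 8.12 in NCI-H716, was higher on all 4 HUTU-80 arrays at 9.38 to 9.98, and under background in MDST8. CCK, or cholecystokinin, read 7.41 to 8.85 in MDST8 alone and at most 3.44 in the other lines. PYY, which mature L cells make with proglucagon, was under background on all 12 arrays. Hormones outside the list of gut hormones were among the higher genes: GAL, the peptide galanin, read 8.37, 8.65, 8.48 and 8.46 (at least 8.34-fold), and NPW, neuropeptide W, 9.46, 7.74, 8.28 and 7.54 (at least 7.09-fold). These 2 were singled out after their values were seen.

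**Figure D2:**
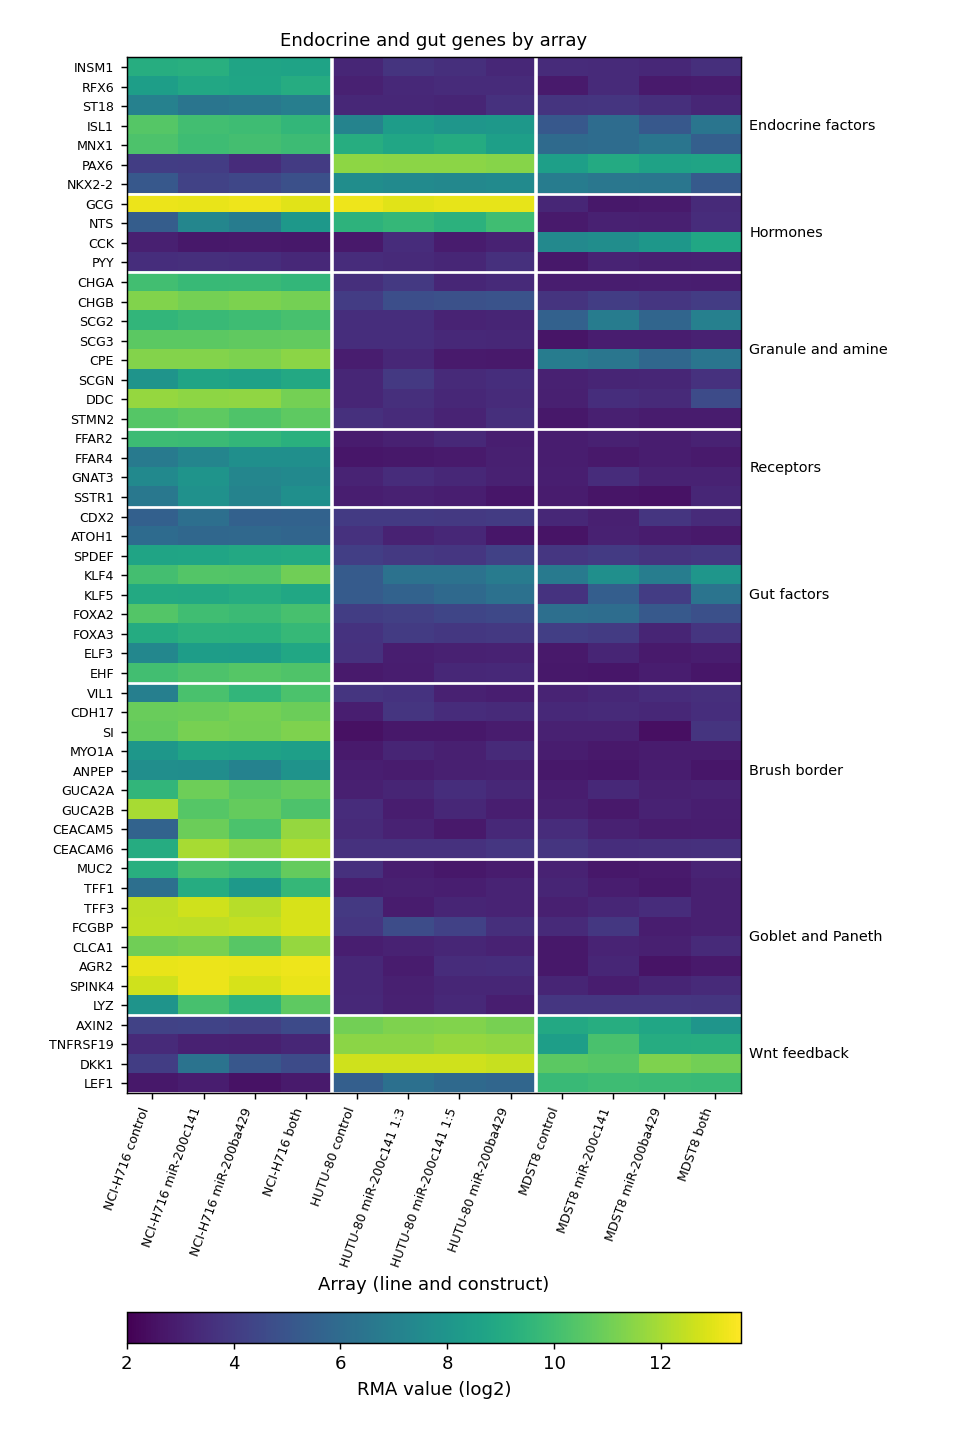
Colour gives the RMA value (log2) of each gene (rows) on each of the 12 arrays (columns, by line and construct), with genes grouped by role and white lines between lines and groups. The genes shown are a selection from each list. NCI-H716 is above the other lines for the granule, receptor, brush border and goblet genes shown. It is dark for PAX6 and the Wnt feedback genes shown, and GCG is bright in both NCI-H716 and HUTU-80. EPHB3, RNF43 and LRIG1, stem cell or Wnt feedback genes that limma called higher, are not drawn.

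The gut programme was the other large group, and it included products of different mature cell types on the same arrays. SI, the brush border enzyme sucrase-isomaltase, read 10.77, 11.13, 11.06 and 11.27 in NCI-H716 and 2.49 to 3.71 elsewhere, at least 49.5-fold. CDH17, an intestinal cadherin, read 10.89, 10.91, 11.08 and 10.90 against 2.97 to 3.78, at least 45.9-fold. MYO1A, the brush border myosin, read 8.09 to 8.71, and GUCY2C, the receptor for the gut peptides guanylin and uroguanylin, 8 to 8.87. Both were under background in the other lines on every array.

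The ligands of that receptor were apart as well. GUCA2A, or guanylin, read 9.57, 10.94, 10.58 and 10.76 in NCI-H716, at least 32.7-fold above the others. GUCA2B, or uroguanylin, read 12, 10.47, 10.79 and 10.28 against 2.78 to 3.46, at least 44.0-fold. The genes are neighbours on chromosome 1, and guanylin was lowest in the control array where uroguanylin was highest. The GUCA2B promoter (chr1:42153160-42153409, plus strand) holds GTTAAT, 1 arm of the palindrome bound by the hepatocyte nuclear factor HNF1, in capitals, 63 bases before the start.

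GUCA2B promoter: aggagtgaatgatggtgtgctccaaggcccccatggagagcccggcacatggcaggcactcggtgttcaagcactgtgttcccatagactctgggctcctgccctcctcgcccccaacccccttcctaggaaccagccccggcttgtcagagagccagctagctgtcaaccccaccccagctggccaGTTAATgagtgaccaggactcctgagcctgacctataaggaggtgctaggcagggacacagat

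ALB, which encodes serum albumin and is made mainly in liver, has the same 6 letters in its promoter (chr4:73404037-73404286, plus strand), 61 bases before the start. It is shown for comparison, since both genes read at least 44-fold higher in NCI-H716.

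ALB promoter: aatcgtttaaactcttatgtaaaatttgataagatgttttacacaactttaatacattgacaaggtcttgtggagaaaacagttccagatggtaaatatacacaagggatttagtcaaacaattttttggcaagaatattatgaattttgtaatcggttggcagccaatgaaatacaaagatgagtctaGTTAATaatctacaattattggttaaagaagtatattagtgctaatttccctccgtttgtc

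The 6 letters, on either strand, lay in 9.54% of the promoters of higher genes, 3.25% of those of lower genes and 4.94% of all. For the FOXA core TGTTTAC the shares were 3.89%, 3.25% and 2.42%. A match says only that the letters are present.

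Goblet genes followed AGR2 and TFF3. MUC2, the main gel-forming mucin of the intestine, read 9.26, 10.22, 9.87 and 10.80 in NCI-H716, at least 24.4-fold above the others, and CLCA1, a protease of the mucus layer, 11, 11.15, 10.50 and 11.69, at least 50.5-fold. MUC5AC, the main mucin of the stomach surface, was apart as well, at 6.43, 8.25, 8.09 and 9.55 where all other arrays were at 3.06 or less. LYZ, the lysozyme of Paneth cells, read 7.97, 10.14, 9.45 and 10.65 against 2.98 to 3.84.

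The gut transcription factors among the higher genes included SPDEF and ATOH1, which drive secretory fates, with SPDEF at 8.71, 8.76, 8.94 and 9.05 and ATOH1 nearer background at 6, 5.86, 5.90 and 5.75. FOXA2 read 10.41, 9.99, 9.86 and 10.14 in NCI-H716, 4.09 to 4.51 in HUTU-80 and 4.83 to 6.18 in MDST8, while FOXA3 was under background in both. The epithelial factor EHF was at least 29.0-fold higher, ELF3 at least 6.96-fold. CDX2, the factor that sets intestinal identity, was only just above background in NCI-H716 at 5.53, 6.21, 5.57 and 5.62, and read 3.90 to 3.98 in HUTU-80 and 3.01 to 3.76 in MDST8. It was not apart by 2 units, but differed by 1.79 from HUTU-80 (SE 0.24, limma adjusted p = 6.80e-05) and by 2.36 from MDST8 (SE 0.21, adjusted p = 2.02e-06).

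Of the 8 gut genes lower in NCI-H716 by the test described below, 6 were stem cell or Wnt feedback genes, and the others were GATA6 and CA2. AXIN2, a feedback inhibitor used as a readout of Wnt signalling, read 4.29, 4.32, 4.17 and 4.58 in NCI-H716, 11.05 to 11.30 in HUTU-80 and 8.01 to 9.17 in MDST8. TNFRSF19, a Wnt target of intestinal stem cells, read 3.02 to 3.38 against 8.43 to 11.70. LEF1, a nuclear partner of beta-catenin, read 2.54 to 2.93 in NCI-H716, 5.48 to 6.25 in HUTU-80 and 9.78 to 9.93 in MDST8, and the secreted inhibitor DKK1 4.09, 6.37, 5.13 and 4.62 against 10.45 to 12.68. The stem cell receptor LGR5 was above background in HUTU-80 alone, at 5.69 to 6.19.

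How many list members differed was read from a linear model with line and construct as terms (limma), in which a gene counted as called where NCI-H716 differed the same way from both lines at an adjusted p under 0.05. Over all genes 2795 (14.1%) were called higher and 2870 (14.5%) lower. The p-values measure the spread between arrays of these lines and not between lines of a kind, and the lists were chosen with earlier results of these data known. Of 85 measured enteroendocrine genes, 27 (31.8%) were called higher and 3 lower. By role, 9 of 16 granule genes, 6 of 15 synaptic or amine genes, 7 of 22 receptors and 5 of 13 transcription factors were called higher, but 0 of 19 hormones in either direction. At an unadjusted p under 0.05 in both limma contrasts the count of hormones was also 0. Of the amine genes DDC was called higher, but TPH1, SLC18A1 and SLC18A2 were not. In 10 of the 16 granule genes NCI-H716 was above background on all its arrays, against 1 in HUTU-80 and 5 in MDST8.

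Of 94 measured gut genes, 44 (46.8%) were called higher and 8 lower. The higher genes were 17 of 30 brush border genes, 12 of 22 goblet or Paneth genes and 12 of 25 transcription factors. The median fitted difference over the goblet and Paneth genes was 4.17 from HUTU-80 and 2.79 from MDST8, where that over all genes was -0.03 and 0.01. Among the 17 stem cell and Wnt feedback genes, 3 were called higher (EPHB3, RNF43 and LRIG1) and 6 lower (AXIN2, ZNRF3, NKD1, TNFRSF19, DKK1 and LEF1). NCI-H716 was above background on all its arrays for 44 of the 94 genes, HUTU-80 for 13 and MDST8 for 14, so both other lines, though labelled as colorectal cancer, showed few of these markers.

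**Figure D3:**
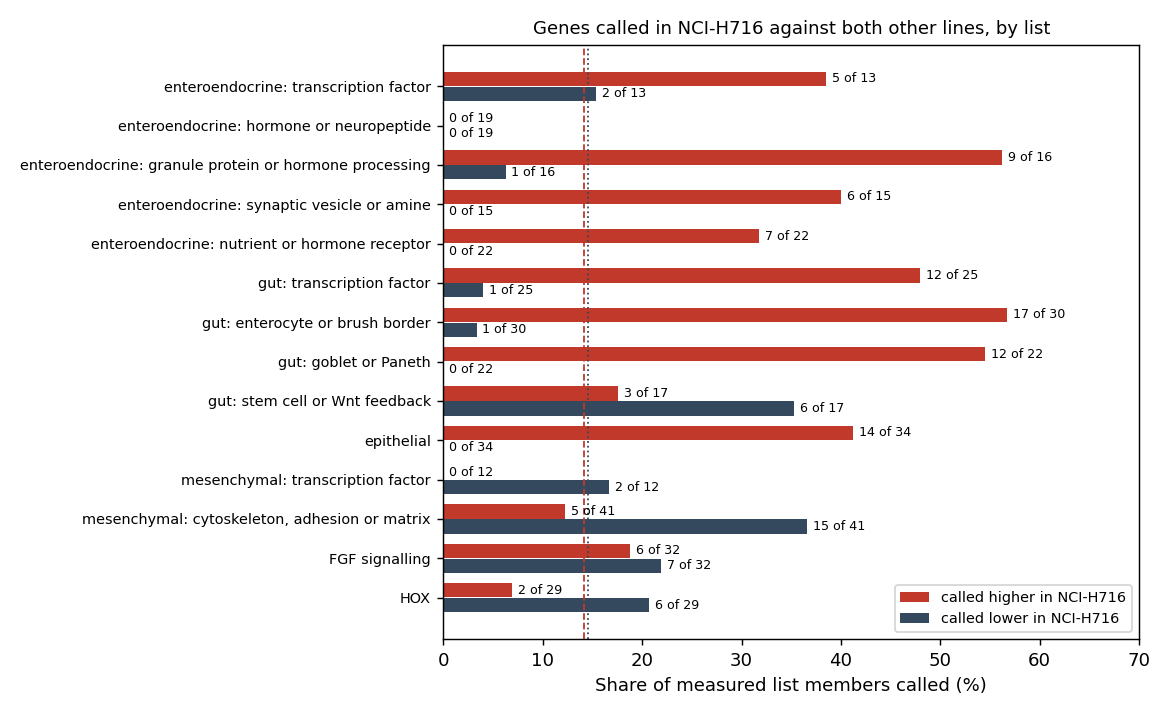
Bars give the share (%) of measured members of each list, by role, that limma called higher (red) or lower (blue) in NCI-H716 than in both other lines, with the counts beside them. The dashed and dotted lines mark the shares over all genes, 14.1% higher and 14.5% lower. The granule, brush border and goblet groups have the longest red bars, and the hormones have none.

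Plasma protein genes that are typical of liver were also measured. ALB read 12, 11.51, 12.03 and 11.37 in NCI-H716 and 2.51 to 2.88 elsewhere, at least 78.8-fold. Among 10 measured liver genes, 6 (60%, beside 14.1% of all genes) were called higher by limma (ALB, AFP, TTR, SERPINA1, APOA2 and FGB) and 0 lower, the latter also 0 at an unadjusted p under 0.05. With genes under background on every array left out, 4 were called higher. The others were much dimmer than ALB: TTR, or transthyretin, read 7.40, 5.88, 6.70 and 5.07, and SERPINA1, or alpha-1-antitrypsin, 4.84, 5.59, 5.34 and 6.55. AFP, the fetal counterpart of albumin, and APOA2, an apolipoprotein, were under background on all 12 arrays, at up to 5.34 and 5.31, and FGB passed it on 1 array, at 5.45. AMBP, another plasma protein gene outside that list, read 10.91 to 11.25 against 3.04 to 3.34.

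In the epithelial list limma called 14 of 34 genes higher in NCI-H716 and 0 lower, the latter also 0 at an unadjusted p under 0.05. Over all genes 14.1% were called higher and 14.5% lower. Of the 14 epithelial genes, 5 were apart by 2 units. KRT19, a keratin of simple epithelia, read 7.68, 9.55, 9.02 and 9.53 against 3.05 to 3.80, and the tight junction gene CLDN4 7.44, 8.34, 8.21 and 8.68 against 2.70 to 3.29. The textbook markers were less clear-cut. EPCAM read 9.29, 12.18, 11.61 and 12.38 in NCI-H716, 4.42, 10.36, 10.63 and 9.28 in HUTU-80, and 3.31 to 3.52 in MDST8, so that NCI-H716 and HUTU-80 overlapped. With the same construct NCI-H716 was higher each time. EPCAM was called higher, at 3.13 above HUTU-80 (SE 0.83, limma adjusted p = 0.0083) and 7.96 above MDST8 (SE 0.74, adjusted p = 2.52e-06). CDH1, or E-cadherin, was under background in all 3 control arrays, at 4.01 in NCI-H716, 3.20 in HUTU-80 and 3.14 in MDST8, and read 8.52, 6.64 and 9.03 on the NCI-H716 construct arrays. The HUTU-80 construct arrays read 6.01, 5.84 and 5.30 for it, and MDST8 stayed under background throughout.

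Of 53 measured mesenchymal genes, 17 were called lower and 5 higher, beside 14.5% lower and 14.1% higher over all genes. The share called higher was thus under that over all genes. The lower genes included FN1, CDH2, the stromal surface protein THY1, the receptor kinase AXL and CAV1, the caveolar coat protein, which read 2.97 to 3.32 in NCI-H716, 7.49 to 8.69 in HUTU-80 and 11.88 to 12.13 in MDST8. The list did not move as one. S100A4, a calcium-binding protein linked with motility, read 11.66, 11.73, 11.86 and 11.66 in NCI-H716 and 3.94 to 5.01 elsewhere, at least 78.8-fold higher, and COL3A1, CDH11, PDGFRA and TPM1 were also called higher. PDGFRA read 7.18, 4.78, 6.22 and 4.33 in NCI-H716 and so passed background on only 2 of its arrays. ZEB1, the repressor of epithelial genes, was bright in all control arrays (10.15 in NCI-H716, 9.87 in HUTU-80, 9.39 in MDST8), and its fitted differences of 0.40 (SE 0.22, limma adjusted p = 0.1849) and 0.51 (SE 0.20, adjusted p = 0.0552) did not pass the test. VIM, or vimentin, stayed bright in NCI-H716 at 11.95, 11.18, 11.78 and 10.69, and was 0.52 below HUTU-80 (SE 0.15, adjusted p = 0.0119) and 1.72 below MDST8 (SE 0.13, adjusted p = 4.83e-07).

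Several lower genes belong to the Hippo pathway, in which the coactivators YAP1 and WWTR1 (TAZ) act through TEAD factors. They were singled out after their values were seen, and no list of this pathway was counted. WWTR1 read 3.15, 3.55, 3.08 and 3.68 in NCI-H716 against 9.42 to 11.35 in the other lines, at least 22.2-fold lower. YAP1 was above background throughout, at 8.46, 8.33, 8.91 and 7.78 in NCI-H716 against 10.37 to 11.28. It was 2.51 units below HUTU-80 (SE 0.13, limma adjusted p = 2.74e-08) and 2.59 below MDST8 (SE 0.12, adjusted p = 6.51e-09). The pathway's target CCN2, a matrix-associated growth factor, read 3.59, 4.56, 4.43 and 5.30 in NCI-H716, 12.19 to 12.50 in HUTU-80 and 9.28 to 10.78 in MDST8, at least 24.3-fold lower. AMOTL2 and the kinase LATS2 were at least 25.9-fold and 11.1-fold lower. The CCN2 promoter (chr6:131951373-131951622, minus strand) is shown because it holds 3 copies of the TEAD motif CATTCC, which read as GGAATG on the printed strand and start 169, 104 and 95 bases before the start.

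CCN2 promoter: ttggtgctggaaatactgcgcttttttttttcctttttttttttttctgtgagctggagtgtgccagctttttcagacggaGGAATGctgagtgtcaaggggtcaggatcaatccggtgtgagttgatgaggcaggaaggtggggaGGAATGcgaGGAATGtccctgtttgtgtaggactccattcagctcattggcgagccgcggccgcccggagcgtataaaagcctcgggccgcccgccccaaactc

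Of all promoters, 14 (0.065%) held 3 or more copies. At least 1 copy lay in 14% of the promoters of lower genes, 7.77% of those of higher genes and 10.5% of all.

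NRG1 had counterparts among its receptors. ERBB3, which binds NRG1, read 8.76, 9.68, 9.28 and 9.89 in NCI-H716 and 3.43 to 6.04 in the other lines, while ERBB2, the partner of ERBB3, read 4.26 to 4.62 in NCI-H716, 8.04 to 8.36 in HUTU-80 and 6.87 to 7.24 in MDST8. NCI-H716 thus was dim for the ligand and ERBB2 and bright for ERBB3. ERBB4, which also binds NRG1, was called higher in NCI-H716 by limma. Of 32 genes of the FGF pathway, 6 (18.8%) were called higher and 7 (21.9%) lower, shares near the 14.1% and 14.5% over all genes. Where a difference of at least 1 log2 unit was required in both contrasts, 3 were called each way. KLB, the coreceptor beta-klotho, read 8.80, 8.44, 8.95 and 8.82 in NCI-H716 and 2.90 to 3.47 elsewhere. FGFR1 read 3.15 to 4.21 against 7.37 to 8.93, and IL17RD, a feedback inhibitor, 2.95 to 3.52 against 8.81 to 10.01. FGFR2 read 9.11, 8.67, 8.98 and 8.28 in NCI-H716, close under HUTU-80 at 9.49 to 9.75 and far above MDST8 at 3.44 to 3.76. Its fitted difference from HUTU-80 was -0.85 (SE 0.20, limma adjusted p = 0.0042).

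Of 29 HOX genes, which set position along the body axis, 2 (6.9%) were called higher (HOXB13 and HOXD1) and 6 (20.7%) lower, beside 14.1% and 14.5% over all genes. The higher count was 1 in 6 alternative settings, among them those without the control, the 1:3 or the miR-200ba429 array of HUTU-80. HOXC10 was the gene apart by 2 units, at 3.26 to 4.16 in NCI-H716 against 7.71 to 8.01. HOXB13, the hindmost HOXB gene, read 6.61, 6.36, 6.46 and 5.21 in NCI-H716 and stayed at 3.95 or less elsewhere. SOX2, a stem cell factor of the foregut and of neural cells outside these lists, was among the lower genes, at 2.80 to 3.34 in NCI-H716, 11.31 to 11.69 in HUTU-80 and 7.44 to 9.36 in MDST8.

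Markers of other cell types were mostly under background, with exceptions among neuron, muscle, erythroid and liver genes. Of 16 immune markers, only LYN, a kinase found in many cell types, was above it on any array of the 3 lines, at 5.67, 5.68, 4.68 and 4.83 in NCI-H716. The array means of that list were 3.26 to 3.46 in NCI-H716, 3.43 to 3.57 in HUTU-80 and 3.41 to 3.54 in MDST8. Of 12 endothelial markers, only FLT1 in NCI-H716 and ROBO4 in MDST8 passed it on any array. Among 15 neuron and glia markers, 5 passed it in NCI-H716 and 3 in each other line, with list means of 4.56 to 4.79, 4.15 to 4.30 and 4.06 to 4.24. The member apart by 2 units was DCX, or doublecortin, at 8.25, 7.04, 6.75 and 6.60 in NCI-H716 against 2.67 to 3.12. Of 10 muscle markers TNNT1 alone passed background, in all 3 lines, at 9.07 to 9.52 in NCI-H716 and 10.13 to 10.44 in the others. Of 4 erythroid markers EPOR passed it in all 3 lines and HBB, or beta-globin, in NCI-H716, at 3.69, 5.71, 4.70 and 7.07. HBB was not called in both contrasts.

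The control arrays alone, with 1 array a line, gave 692 genes at least 2 units higher in NCI-H716 and 356 lower. They include all 680 marker genes, as they must. Between the controls the gap of the 463 higher genes ran from 2.05 upwards with a median of 4.13, and that of the 217 lower genes from 2.08 with a median of 3.74. It was wider by 1 unit or more than the gap over all arrays in 90 higher and 48 lower genes. DDC was such a gene, with 8.47 between the controls and 6.47 over all arrays, where its highest other value was on the MDST8 array with both viruses. That value, 4.63, and all its others outside NCI-H716 lie under background and so have no order.

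A further 229 genes were at least 2 units higher and 139 lower in the controls, but not on all arrays. Of these, 219 and 130 still did not overlap between NCI-H716 and the other arrays. The 10 that overlapped on the higher side included EPCAM, with a gap of 4.87 between controls, and the 9 on the lower side COL1A1, a chain of type I collagen. COL1A1 read 3.19 in the NCI-H716 control and 6.72, 5.12 and 7.57 with the constructs, against 5.44 to 6.82 in HUTU-80. MFAP4, a matrix protein, had the widest control gap of the higher genes that were lost, with 8.25 in the NCI-H716 control and 4.92, 6.55 and 3.34 with the constructs. A construct array of NCI-H716 alone was enough to close the gap in 134 of the 229 genes and in 65 of the 139.

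**Figure D4:**
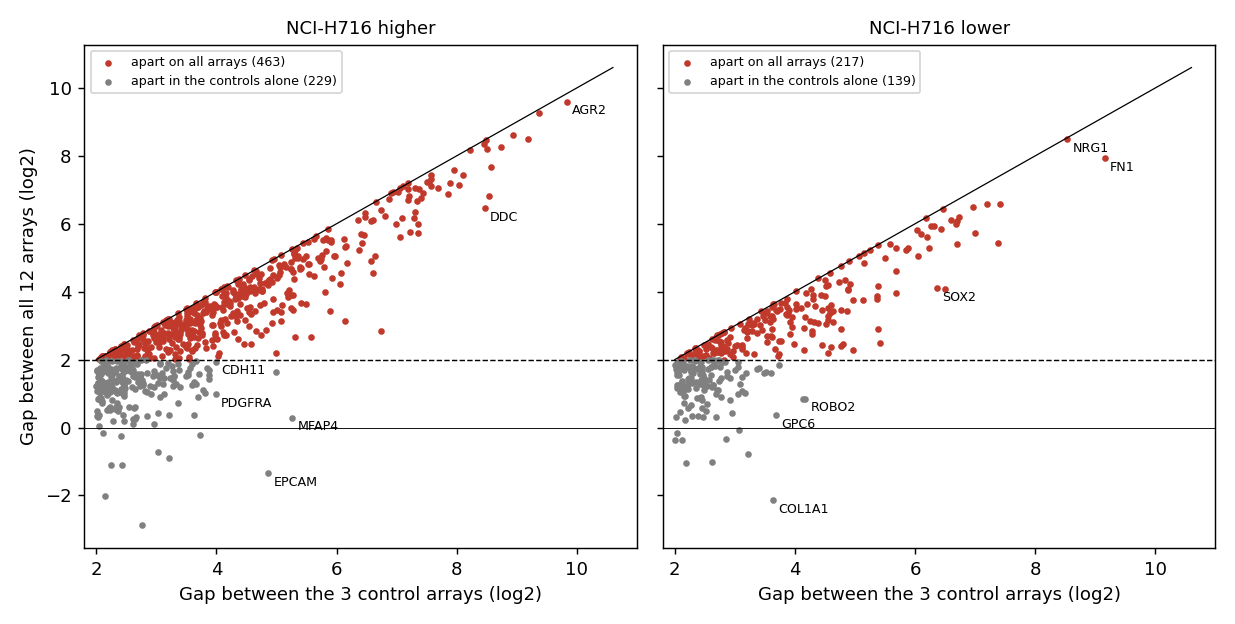
Each point is a gene that is at least 2 log2 units apart in the 3 control arrays, with NCI-H716 higher on the left and lower on the right. The horizontal axis is the gap between the control arrays and the vertical axis the gap over all 12 arrays (both log2), with the diagonal marking equal gaps and the dashed line 2 units. Red points are the 463 and 217 marker genes, and grey points the 229 and 139 that were apart in the controls alone, with EPCAM and COL1A1 below 0, where the lines overlap.

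Some identity genes differed between the construct arrays and the control array of NCI-H716, with 1 array of each kind and so no replicate check. A difference that comes from the constructs and one that comes from the single control array cannot be told apart. The constructs carry these mature miRNAs (RefSeq, GRCh38.p14), shown with the seed, bases 2 to 8, in capitals, since the seeds divide the family into 2 sets. The genes of miR-200c and miR-141 lie on chromosome 12 and those of miR-200b, miR-200a and miR-429 on chromosome 1.
hsa-miR-200c-3p: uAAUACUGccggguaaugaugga
hsa-miR-200b-3p: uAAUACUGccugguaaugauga
hsa-miR-429: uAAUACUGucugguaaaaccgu
hsa-miR-141-3p: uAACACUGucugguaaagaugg
hsa-miR-200a-3p: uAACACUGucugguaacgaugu
Both constructs hold both seeds, so the arrays cannot tell the seeds apart.

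Among the 463 higher genes, 23 (4.97%) were at least 1 log2 unit above the NCI-H716 control on all 3 construct arrays, and 4 (0.864%) were at least 1 unit below. Over all genes the shares were 0.647% and 0.288%, and among the 8948 genes above background on every NCI-H716 array 0.492% and 0.0671%. The 23 included VIL1, or villin, at 6.95 in the control and 10.18, 9.58 and 10.24 with the constructs, and CEACAM5, the carcinoembryonic antigen, at 5.68 and 10.93, 10.25 and 11.67. CEACAM5 was thus close to background in the control array, and its gap to the other lines was 2.24 in the controls. SCNN1A, a subunit of the epithelial sodium channel, went from 5.92 to 10.20, 9.05 and 10.11, and the antioxidant enzyme GPX2 from 7.13 to 10.73, 11.07 and 11.38. The other lines stayed under background for all of these genes.

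The 4 higher genes that were lower on the construct arrays were GUCA2B, DCX, NPW and SHISA3. Among the 217 lower genes the cell cycle inhibitor CDKN1A was 1 unit or more above its control (3.74, then 5.63, 4.83 and 6.44) and PDLIM2 as much below, 0.461% each. The change with any construct differed between NCI-H716 and the other lines in 6 of 19774 genes by limma's interaction term at an adjusted p under 0.05. At an unadjusted p under 0.05 it was 1053, close to the share that this limit passes by chance alone. Each line has 1 control array in this test, which is assumed to vary like the arrays with different constructs from which the spread was estimated. For CEACAM5 it was larger in NCI-H716 by 5.64 (SE 0.56, adjusted p = 0.0271), for CEACAM6 by 2.82 (SE 0.34, adjusted p = 0.0368) and for VIL1 by 3.23 (SE 0.41, adjusted p = 0.0399). GPX2 and CAPN8 differed the same way, by 3.66 (SE 0.43) and 4.81 (SE 0.53), and NRIP2 the opposite way, by -2.07 (SE 0.25). CEACAM5 and CEACAM6 are close relatives whose probes may share signal.

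Other probe sets of the marker genes gave a check on the brightest one. Of 547 further probe sets of 273 higher genes, 195 (35.6%) were also at least 2 units higher, and of 370 of 172 lower genes 86 (23.2%) were lower. Over all 21146 further probe sets the shares were 1.08% and 0.520%. At least 1 further probe set was apart in 140 of the 273 and in 67 of the 172 genes.

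Some marker genes lay side by side. Of 462 higher genes with a place in the RefSeq gene table, 73 (15.8%) were next to another among measured genes, and of 215 lower genes 10 (4.7%). Higher genes were 8.1% of the direct neighbours of higher genes, beside 2.34% of all genes, and lower genes 2.4% of those of lower genes, beside 1.10%. Some neighbours are related copies, such as AGR2 and AGR3, GUCA2A and GUCA2B, or CEACAM5 and CEACAM6. The 4 aldo-keto reductases AKR1C1, AKR1C2, AKR1C3 and AKR1C4, which reduce steroids and other carbonyls, formed a run on chromosome 10. AKR1C3 read 12.46, 12.58, 12.84 and 12.65 in NCI-H716 against 2.73 to 5.42. AKR1C1 and AKR1C2 are near-identical, and their probes may not tell them apart. Other pairs are unrelated by sequence, such as DEPTOR and COL14A1, or FFAR4 and the retinol carrier RBP4.

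The longest run lay on chromosome 8 and joined ZNF572, SQLE, WASHC5, NSMCE2 and TRIB1. SQLE, an enzyme of cholesterol synthesis, read 12.92, 12.92, 13.08 and 12.92 in NCI-H716, 9.44 to 10.09 in HUTU-80 and 9.59 to 10.19 in MDST8. TRIB1, a pseudokinase, read 12.75, 12.89, 12.82 and 12.85 against 8.35 to 9.95, and NSMCE2, a SUMO ligase of DNA repair, 12.29 to 12.60 against 7.88 to 8.51. Unlike most marker genes, these 3 were well above background in all lines.

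From MAL2 to LRATD2, a stretch of 40 measured genes whose ends were chosen after the values were seen, 12 (30.0%) were higher by 2 units and none lower, beside 13 of the 674 other genes of chromosome 8 (1.93%). By limma 19 of the 40 were called higher and 5 lower. The higher genes stood among others that were not: TAF2 read 8.89 to 9.07 in NCI-H716, 9.66 to 9.86 in HUTU-80 and 9.34 to 9.51 in MDST8. DERL1 read 8.98 to 9.09, 8.95 to 9.06 and 9.11 to 9.37 in the same order. NDUFB9, a respiratory chain subunit, read 13.43 to 13.47 in NCI-H716 against 11.44 to 11.72 in the other lines. DNA copy number was not analysed here.

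**Figure D5:**
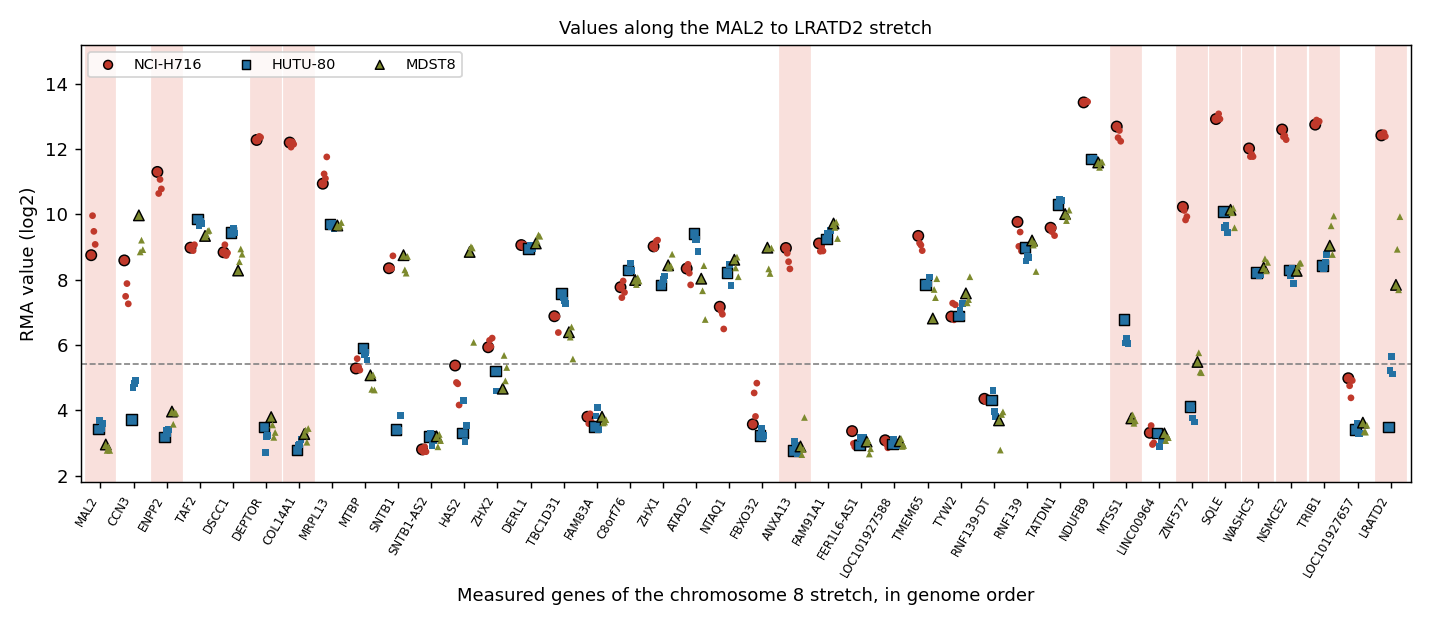
The vertical axis gives the RMA value (log2) of the 40 measured genes from MAL2 to LRATD2 in genome order, with circles for NCI-H716, squares for HUTU-80, triangles for MDST8, black outlines for control arrays and the dashed line at background. Shaded genes are the 12 that are at least 2 units higher in NCI-H716, 5 of them side by side, and genes such as TAF2 and DERL1, where the lines lie close together, are not shaded.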

How the data were processed

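Biotin-labelled total RNA was hybridised to Affymetrix U133 Plus arrays. The deposited values are log2 intensities that the authors made with RMA, per the submitters' processing notes, which give no settings. RMA quantile normalizes, so a change shared by most genes cannot be seen. Values were used as deposited, with groups from the sample titles. SW620, named in the protocol, was not analysed here.

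Of 54715 probe sets, 40920 named a single gene. The one with the highest mean over all arrays stood for each of 19774 genes. The 12835 with no name were counted apart, and 864 naming several genes were left out.

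Lines were compared with limma 3.58.1 (R 4.3.3), with line and construct as terms, variance trend and two-sided Benjamini-Hochberg adjusted p-values over all genes. The 1:3 and 1:5 arrays of HUTU-80 entered as their mean, leaving 11 samples and 5 residual degrees of freedom. The number of arrays limits precision. The fit was tested on simulated data. Figures and counts were made with Python 3.11.15.

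Of 435 genes in 12 lists, 394 were measured. Members and lists were chosen with earlier results of these data known. Named genes were the 12 widest gaps each way, list members 2 units apart, a fixed set of 17 line markers where measured, the 2 genes on each side of the threshold, runs of 3 or more neighbours and the 5 widest control gaps lost over all arrays. Any other gene was singled out after its values were seen. Alternatives were other distances, other probe set rules, a background filter, median centring, single lines, other fits and leaving out each array.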

Additional observations from a re-analysis of the deposited data

Results flagged for a closer look

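In 6 of the 124 named genes, 1 of the 4 NCI-H716 arrays lay far from the other 3 for the size of their range (Dixon's 95% limit). Chance alone marks about 1 gene in 20 this way. The miR-200ba429 array was the one apart for CAP2, at 2.92, for PAX6, at 3.46, for CDH17, at 11.08, and for SQLE, at 13.08. The control array was apart for CCK, at 3.03, and the miR-200c141 array for CDX2, at 6.21. The CAP2, PAX6 and CCK values lie under background. Without the miR-200ba429 array of NCI-H716, 468 genes were higher and 223 lower, where leaving out an array can only keep or add genes.

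The change with any construct was larger in NCI-H716 than in the other lines for 3 named genes by limma's interaction term: VIL1 by 3.23, CEACAM5 by 5.64 and CEACAM6 by 2.82 log2 units. This test rests on 1 control array of each line, so an unusual NCI-H716 control array cannot be told apart from a change with the constructs.

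Of the 12835 probe sets with no gene name, which no comparison used, 78 were at least 2 log2 units higher in NCI-H716 than on every other array and 30 lower.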

How the results depend on the processing

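The count of genes apart moved with the distance, the reference and the probe set rule. At 1 log2 unit it was 828 higher and 535 lower, and at 3 units 291 and 114. Against HUTU-80 alone it was 872 and 554, against MDST8 alone 690 and 767, and between the control arrays 692 and 356. Where every probe set of a gene had to be apart, 253 and 74 genes were left, and averaging the probe sets of a gene gave 354 and 127, of which 350 and 122 were among the main genes. A filter on background gave 458 and 214, and median centring 448 and 225. Leaving out 1 array at a time gave 465 to 506 higher and 219 to 247 lower genes. With fewer arrays the rule can only keep or add genes, so these counts could not fall.

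Requiring a difference of at least 1 log2 unit in both contrasts lowered the limma calls to 1358 higher and 1084 lower. All other settings gave 2490 to 2909 and 2557 to 2966. Across settings 24 to 29 enteroendocrine, 42 to 45 gut and 10 to 15 epithelial genes were called higher and 14 to 18 mesenchymal genes lower. For FGF genes 3 to 7 were called higher and 3 to 8 lower, for HOX genes 1 to 3 and 4 to 6, and for liver genes 4 to 6 higher. The fit without a construct term gave 2676 and 2686 calls. With the mean of all probe sets, an alternative chosen after seeing the data, 19 in place of 23 higher genes were at least 1 unit above the control on every construct array. Of the 124 differences of named genes, 72 moved by more than the spread between arrays when the control arrays alone were used and 57 with averaged probe sets. A reversal was looked for only in genes that limma called, and none of those reversed. NTS, which was not called, changed sign against the mean of the other lines in the control arrays alone. Probe sets near background limit how far down a difference can be measured.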

Other observations

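Some higher genes that handle drugs, steroids or lipids were singled out after their values were seen, and no list of such genes was counted. UGT2B15, which conjugates steroids with glucuronic acid, read 10.12, 11.24, 10.82 and 11.80 in NCI-H716 in the order control, miR-200c141, miR-200ba429 and both, and 3.25 to 3.81 elsewhere. The glutathione transferase GSTA1 read 10.27, 10.47, 9.64 and 9.70, and CYP3A5, a cytochrome P450 of gut and liver, 8.56, 9.19, 9.48 and 9.72, with every other array under background. ABCB1, the efflux pump P-glycoprotein, read 10.01 to 10.43 against 2.85 to 4.15, at least 27.4-fold. CD36, a fatty acid transporter, was at least 44.9-fold higher, the lipid-sensing receptor PPARG at least 5.42-fold and NPC1L1, the cholesterol uptake protein of enterocytes, at least 2.87-fold. UGT2B15, UGT2B17 and UGT2B28 are close relatives whose probes may share signal.

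Host transcripts of miRNAs were also apart. The arrays read the host transcripts and not the mature miRNAs, which are printed with the seed in capitals to show that no seed is shared between them. Their genes lie on chromosomes 19 (miR-7-3), 11 (miR-675), 9 (miR-31) and 1 (miR-34a).
hsa-miR-7-5p: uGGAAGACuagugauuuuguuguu
hsa-miR-675-5p: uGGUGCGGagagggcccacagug
hsa-miR-31-5p: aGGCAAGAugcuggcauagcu
hsa-miR-34a-5p: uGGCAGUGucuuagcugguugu
MIR7-3HG, the host of miR-7, read 7.23, 7.90, 7.45 and 7.91 in NCI-H716 against 2.85 to 3.58 elsewhere, and H19, the imprinted host of miR-675, 10.84, 10.72, 10.41 and 10.02 against 2.56 to 4.68. MIR31HG and MIR34AHG went the other way, at 3.82 to 4.48 and 2.78 to 3.74 in NCI-H716 against 6.72 to 8.92 and 5.84 to 7.41. NNAT, another imprinted gene, read 10.48 to 11.06 in NCI-H716 against 2.85 to 3.28.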
